A study of Mus musculus with 12 samples.

Results

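Amacrine and horizontal cells, the inhibitory interneurons of the retina, were followed through 10 of their genes, taken by symbol from each of 2 tables that list 25124 genes. The 10 genes are Tfap2a and Tfap2b, Gad1 and Gad2, Slc6a9, Calb1, Calb2 and Pvalb, and Lhx1 and Onecut1. Horizontal cells feed back onto photoreceptor terminals in the outer retina. Amacrine cells act on bipolar cell terminals and ganglion cell dendrites in the inner retina and release mainly GABA or glycine. AP-2 transcription factors direct the amacrine and horizontal fates, Lhx1 and Onecut1 mark the horizontal lineage, and calcium-binding proteins divide the mature cells into subtypes. None of the calcium-binding genes is taken as restricted to interneurons, and Calb2 and Pvalb are known to be used by mouse ganglion cells as well.

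RNA-seq of whole mouse retina (polyadenylated RNA, 12 libraries, 6 groups of 2) asked how natural aging and a mild rise of intraocular pressure (IOP) change the retina. All mice were wildtype C57BL/6J. The 3mo IOP and 18mo IOP retinas were taken at ages of 3 and 18 months, 2 days after 30 mmHg was held for 1 h in a single eye, and the 3mo control and 18mo control retinas were untreated contralateral eyes. The 4xIOP retinas came from mice given 4 such elevations spaced by 2 weeks, beginning at 3 months of age, with a wait of 2 days after the last, and the 4xIOP control retinas were their untreated fellow eyes. The pressure was raised by a saline infusion through a corneal needle under ketamine and xylazine anesthesia, so an untreated eye had shared the anesthesia but not the needle. Each library was made from the retina of a single eye, and the study describes the libraries of a group as biological replicates, though the labels do not tie a library to an animal.

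Values are FPKM, fragments scaled to the length of the counted transcript and to the size of the library, so levels can be compared between genes. Depth lay between 39766238 and 59455053 tags per library, and no member was at or under 3 reads in any library, the lowest being Onecut1 with 7 reads in 18mo IOP replicate 2. A difference is a log2 fold change on the log2(FPKM + 0.5) scale, which understates the change of low genes. A gene was called when its limma p-value, adjusted by the Benjamini-Hochberg method, did not exceed 0.05 and its difference was 1 or more in size. With a mean of at least 0.5 FPKM as the condition for a test, 9 members were tested in the single-IOP libraries (all but Onecut1) and 8 in the repeated-IOP libraries (all but Lhx1 and Onecut1). Among the 18mo libraries, control replicate 1 and IOP replicate 2 stood apart from the other two by low values of most members, and the age results of the members and of the gene lists are also given without them. Markers of the tissue were present in every library, with summed rod markers between 4668 and 23966 FPKM.

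In build mm10 the AP-2 genes lie on chromosome 13 (Tfap2a, NM_011547, 40715303 to 40733823, minus strand) and chromosome 1 (Tfap2b, NM_001286340, 19208914 to 19238845, plus strand). They were among the members whose 18mo libraries disagreed most. Tfap2a was at 3.77 and 2.73 FPKM in the 3mo control and at 2.94 and 3.79 FPKM in the 3mo IOP libraries. In the aged retinas Tfap2a was at 0.948 and 2.85 FPKM in the control and at 2.58 and 0.182 FPKM in the IOP libraries. Tfap2a therefore overlapped between ages in control eyes, while both 18mo IOP values lay below both 3mo IOP values. The difference with age was -0.75 ± 0.65 (SE) in control eyes (limma adjusted p = 0.364) and -1.41 ± 0.65 in IOP eyes (adjusted p = 0.112). It was -0.15 without 18mo control replicate 1 and -1.36 without replicate 2 in control eyes, and in IOP eyes -0.32 without 18mo IOP replicate 2 and -2.49 without replicate 1, where Tfap2a was called (adjusted p = 0.0175). Tfap2b, the partner factor of the same family, was at 10.05 and 6.58 FPKM in the 3mo control, 7.88 and 8.85 in the 3mo IOP, 3.66 and 11.2 in the 18mo control and 11.1 and 1.13 in the 18mo IOP libraries. The higher value of each 18mo group was above every 3mo library, and the lower value was below every 3mo library. Tfap2b thus showed no separation by age, with differences of -0.31 ± 0.82 and -1.03 ± 0.82 (adjusted p = 0.773 and 0.332).

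The genes for GABA synthesis, both on the plus strand of chromosome 2, were low in the same 18mo libraries as the AP-2 factors. Gad1 (NM_008077) spans 70562129 to 70602014 and is overlapped by Gad1os on the opposite strand, and Gad2 (NM_008078) spans 22622327 to 22693877. Reads were counted by strand, so an antisense partner did not add to these values. Gad1, which encodes the larger glutamate decarboxylase, was nearly the same in the 4 young libraries, at 21.9 and 24.1 FPKM in the 3mo control and 23.3 and 22.2 FPKM in the 3mo IOP eyes. In the aged eyes Gad1 was at 9.70 and 26.0 FPKM in the control and at 27.3 and 2.23 FPKM in the IOP libraries. The 2 libraries of the 18mo IOP group thus differed 12.3-fold in Gad1 (4878 and 430 reads), more than any difference between groups. Gad2, the second glutamate decarboxylase, was at 4.12 and 3.73 FPKM in the 3mo control, 2.60 and 4.02 in the 3mo IOP, 1.79 and 3.63 in the 18mo control and 4.59 and 0.402 in the 18mo IOP libraries. Control eyes did not overlap between ages in Gad2, though only narrowly. With age Gad1 differed by -0.51 ± 0.91 in control eyes and -1.42 ± 0.91 in IOP eyes (limma adjusted p = 0.665 and 0.234), and Gad2 by -0.52 ± 0.69 and -0.81 ± 0.69 (adjusted p = 0.552 and 0.362). Over the 8 libraries, which share ages and may share mice, Pearson correlations among Tfap2a, Tfap2b, Gad1 and Gad2 lay between 0.948 and 0.972, as a description. The low values of 18mo control replicate 1 and 18mo IOP replicate 2 enter each of these correlations. Among the 4 young libraries Gad1 was highest (24.1 FPKM, 3mo control replicate 2) where Tfap2a and Tfap2b were lowest (2.73 and 6.58 FPKM). Gad2 did not follow Gad1 there and was lowest in 3mo IOP replicate 1, at 2.60 FPKM.

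Slc6a9 (NM_001355175, chromosome 4, 117849350 to 117869304, plus strand) stood apart from the GABA genes. It encodes GlyT1, the plasma membrane glycine transporter of glycinergic amacrine cells that is also found in glia. Slc6a9 was at 17.1 and 11.3 FPKM in the 3mo control and 15.1 and 14.6 FPKM in the 3mo IOP eyes. At 18mo it was at 15.5 and 21.4 FPKM in the control and 22.9 and 12.6 FPKM in the IOP eyes. The same 18mo libraries were the low ones, but by a smaller ratio than in the other members except Pvalb and, in the control eyes, with the smallest ratio of all 10 members. Slc6a9 differed by 0.38 ± 0.31 with age in control eyes and by 0.19 ± 0.31 in IOP eyes (limma adjusted p = 0.341 and 0.644).

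**Figure D1:**
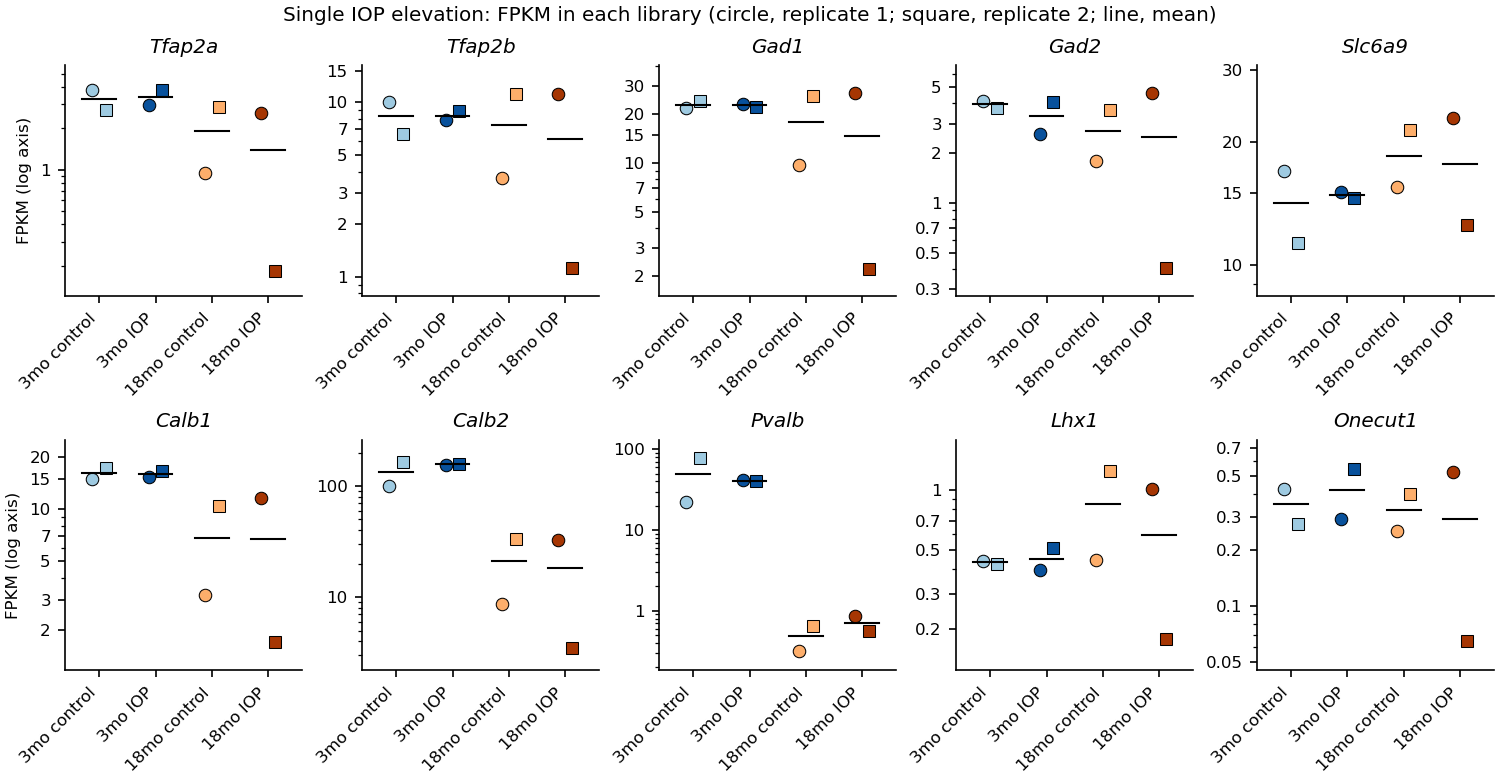
FPKM of each member in the 8 single-IOP libraries on log axes, by group (circles, replicate 1; squares, replicate 2; lines, group means). Pvalb lies between 22.5 and 77.4 FPKM in the 3mo libraries and between 0.312 and 0.861 FPKM in the 18mo libraries, and in 8 of the 10 members 18mo IOP replicate 2 is the lowest library.

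The calcium-binding genes held the called members. Pvalb (NM_013645, chromosome 15, 78191112 to 78206400, minus strand) encodes parvalbumin, a fast calcium buffer. Pvalb was at 22.5 and 77.4 FPKM in the 3mo control and at 41.2 and 40.9 FPKM in the 3mo IOP eyes. In the aged eyes Pvalb was at 0.312 and 0.652 FPKM in the control (13 and 29 reads) and at 0.861 and 0.566 FPKM in the IOP libraries (45 and 32 reads). Every 18mo library was below every 3mo library, the nearest being 22.5 FPKM in 3mo control replicate 1 and 0.861 FPKM in 18mo IOP replicate 1. The mean was 49.96 ± 38.8 FPKM (SD, n = 2) in the 3mo control and 0.482 ± 0.240 FPKM (SD, n = 2) in the 18mo control. The fitted difference with age was -5.45 ± 0.49 in control eyes (limma adjusted p = 0.00265) and -5.11 ± 0.49 in IOP eyes (adjusted p = 0.00174). The Pvalb transcript has 951 bases, and the 1481 tested genes with transcripts under 1000 bases had a median difference with age of -0.88 in control eyes, against 0.49 for the 3873 genes of 4000 bases and over. With the trend with transcript length removed from each library Pvalb differed by -4.70 (adjusted p = 0.000972) and -4.29 (adjusted p = 0.000652).

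Calb2 (NM_007586, chromosome 8, 110142526 to 110168212, minus strand) encodes calretinin, a marker of subsets of amacrine and ganglion cells and the most abundant member. Calb2 was at 100.4 and 166 FPKM in the 3mo control and at 156 and 158 FPKM in the 3mo IOP eyes. In the aged retinas it was at 8.64 and 33.5 FPKM in the control and at 32.8 and 3.47 FPKM in the IOP eyes. All aged libraries were below all young libraries, and the aged libraries also differed within each group, 3.88-fold in the control and 9.47-fold in the IOP eyes. The mean was 157 ± 1.62 FPKM (SD, n = 2) in the 3mo IOP and 18.1 ± 20.8 FPKM (SD, n = 2) in the 18mo IOP eyes. Calb2 differed by -2.88 ± 0.93 with age in control eyes (limma adjusted p = 0.0357) and by -3.78 ± 0.93 in IOP eyes (adjusted p = 0.0164). The call in control eyes rested on all 4 libraries, since leaving out any one gave an adjusted p between 0.054 and 0.187 with a difference between -3.83 and -1.93. In IOP eyes the call was lost without 3mo IOP replicate 1 (adjusted p = 0.0836), 3mo IOP replicate 2 (adjusted p = 0.079) or 18mo IOP replicate 2 (adjusted p = 0.0533), and kept without 18mo IOP replicate 1.

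Calb1 (NM_009788, chromosome 4, 15881264 to 15906709, plus strand) encodes calbindin, the classic label of horizontal cells that is also found in amacrine subsets. Calb1 was at 15.1 and 17.4 FPKM in the 3mo control and 15.4 and 16.6 FPKM in the 3mo IOP eyes. The aged values were 3.18 and 10.4 FPKM in the control and 11.7 and 1.70 FPKM in the IOP eyes. Both ages were separate in control and in IOP eyes, but Calb1 was not called, with differences of -1.40 ± 0.74 and -1.67 ± 0.74 (limma adjusted p = 0.152 and 0.0994). Its size depended on single aged libraries. In control eyes it was -0.61 without 18mo control replicate 1 and -2.18 without replicate 2. In IOP eyes it was -2.91 without 18mo IOP replicate 1, where Calb1 was called (adjusted p = 0.0169), and -0.44 without replicate 2.

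AP-2 factors bind the palindrome GCCNNNGGC, where N is any base. It was searched, as an exact match on both strands, in the 250 bases before the transcription start for the 8 members that RefSeq's promoter table holds (12 windows, build GRCm38.p6), and it is shown for Gad2 and Pvalb, the members with a match. The motif occurred in 13.7% of all 32841 windows, and 3 of the 12 member windows did. Capitals mark the matches in the sequences, written 5′ to 3′ on the strand of the gene. The Gad2 window is chr2:22622077-22622326 on the plus strand of chromosome 2, with matches that begin 242 and 121 bases before the start. The Pvalb window is chr15:78206401-78206650 on the minus strand of chromosome 15, with a match that begins 81 bases before the start of the counted transcript.
Gad2 promoter: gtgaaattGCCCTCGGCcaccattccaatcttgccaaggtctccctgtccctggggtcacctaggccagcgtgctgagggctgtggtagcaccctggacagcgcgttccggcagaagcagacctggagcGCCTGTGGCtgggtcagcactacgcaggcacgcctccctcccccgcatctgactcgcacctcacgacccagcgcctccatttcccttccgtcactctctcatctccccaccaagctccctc
Pvalb promoter: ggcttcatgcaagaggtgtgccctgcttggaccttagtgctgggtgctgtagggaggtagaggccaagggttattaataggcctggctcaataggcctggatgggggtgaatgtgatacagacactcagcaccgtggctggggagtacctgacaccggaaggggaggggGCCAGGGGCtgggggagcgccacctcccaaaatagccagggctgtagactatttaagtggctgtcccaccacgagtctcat
These are matches of letters, not binding sites, and the Onecut core ATTGAT (6.72% of all windows, found before another Slc6a9 start) and the homeodomain core TAATTA (4.84%, found before a Tfap2a start) each occurred in 1 member window. Gad2 and Pvalb, which share the AP-2 letters, did not share a pattern over the 8 libraries (Pearson r 0.443, a description).

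The horizontal cell factors were near the limit of the test. Lhx1 (NM_008498, chromosome 11, 84517975 to 84525534, minus strand), a LIM homeodomain factor needed for horizontal cell position, was at 0.441 and 0.424 FPKM in the 3mo control, 0.395 and 0.509 in the 3mo IOP, 0.446 and 1.25 in the 18mo control and 1.005 and 0.178 in the 18mo IOP libraries. The 18mo control values were above the 3mo control values by as little as 0.446 against 0.441 FPKM, and IOP eyes overlapped. Lhx1 differed by 0.46 ± 0.42 and 0.09 ± 0.42 with age (limma adjusted p = 0.382 and 0.875). Onecut1 (NM_008262, chromosome 9, 74861921 to 74889647, plus strand) was below the filter, with values from 0.065 FPKM (7 reads, 18mo IOP replicate 2) to 0.541 FPKM (3mo IOP replicate 2) over the single-IOP libraries and overlapping groups.

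With age, then, 2 of the 9 tested members were called lower and none higher, in control eyes as in IOP eyes, and both times these were Pvalb and Calb2. Of all 13731 genes tested 23.2% were called in control eyes and 21.8% in IOP eyes, and 11.6% were called lower in each, so 2 of 9 members is close to the shares called in either direction and above the share called lower, by a count of 2 genes. The median difference of the tested members was -0.52 in control and -1.41 in IOP eyes, against 0.16 and 0.09 over all genes tested. These medians rested on single aged libraries, with -0.10 without 18mo control replicate 1 and -1.20 without replicate 2 in control eyes, and 0.26 without 18mo IOP replicate 2 and -2.49 without replicate 1 in IOP eyes. In control eyes 4 members were lower without overlap, as were 32.8% of all genes, and 1 was higher without overlap, as were 45.7%. In IOP eyes 4 were lower without overlap, as were 34.5% of all genes, and none was higher, against 43.2%. Without 18mo control replicate 1 and 18mo IOP replicate 2, a choice made after the values were seen that leaves 1 library in each aged group and assumes that it varies like the others, Pvalb alone was called in control eyes (-5.20, adjusted p = 0.028) with 2.64% of all genes. In IOP eyes the same fit called Pvalb (-4.93, adjusted p = 0.019) and Calb2 (-2.24, adjusted p = 0.0338) with 5.98% of all genes, and Tfap2b, Gad1 and Gad2 then lay above 0 at 0.39, 0.26 and 0.44. Without 18mo IOP replicate 1, the higher library, the differences of all tested members but Slc6a9 and Lhx1 lay between -5.31 for Calb2 and -2.05 for Gad2 in IOP eyes. The age comparisons of control and of IOP eyes share no library, but eyes of the same mice may be in both. Fewer cells of a type and less RNA per cell cannot be told apart in whole retina.

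**Figure D2:**
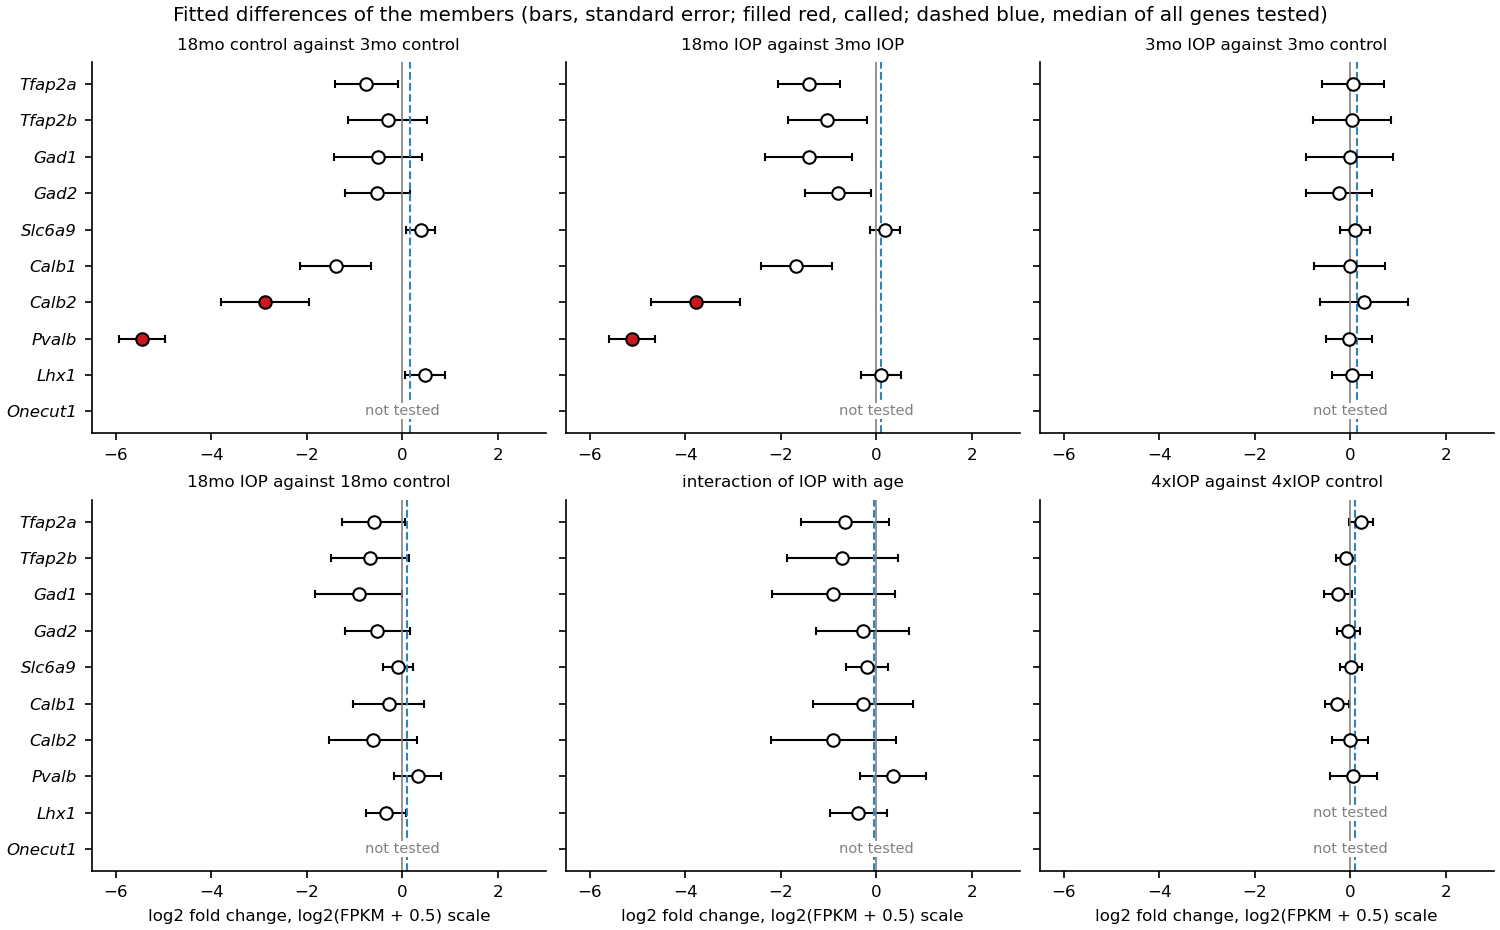
Log2 fold change ± SE of each tested member in 6 comparisons on the log2(FPKM + 0.5) scale (filled red, called; open, not called; dashed blue, median of all genes tested). Filled points stand only at Pvalb and Calb2 in both age comparisons, from -5.45 to -2.88, and no member is called in a comparison of IOP.

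Markers of other cells moved with age as well, and their part in the values of the members was not tested. Ganglion cell markers, which matter because Calb2 and Pvalb are shared with those cells, summed to 338 and 638 FPKM in the 3mo control, 464 and 538 in the 3mo IOP, 38.5 and 86.1 in the 18mo control and 95.0 and 39.5 in the 18mo IOP libraries. Of 9 tested ganglion cell markers 6 were called lower with age in control eyes and 8 in IOP eyes, and no marker was at 0 in any library. Without 18mo control replicate 1 and 18mo IOP replicate 2 these counts were 3 and 3. The ganglion cell sums were lowest in the libraries in which Tfap2a, Gad1 and Calb2 were lowest. Pigment epithelium markers fell from between 104 and 309 FPKM to between 1.38 and 9.14 FPKM, with 6 of 6 called lower in control and IOP eyes (4 and 5 without those libraries) and Tyr at 0 in 18mo IOP replicate 2. Endothelial markers summed to between 7.17 and 12.5 FPKM at 3mo and between 49.7 and 70.8 FPKM at 18mo, with 5 of 5 called higher in control and in IOP eyes, with or without those libraries. Of 8 bipolar cell markers 4 were called higher in each age comparison (3 and 4 without those libraries) and none lower. Muller glia markers, which bear on Slc6a9 as a gene also found in glia, summed to between 465 and 674 FPKM at 3mo and between 951 and 1403 FPKM at 18mo, with 3 of 7 called higher in control and 4 in IOP eyes (1 and 2 without those libraries). Microglia and leukocyte markers summed to between 6.10 and 21.0 FPKM at 3mo and between 20.3 and 51.4 FPKM at 18mo, with 3 of 7 called higher in each (2 and 4 without those libraries).

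Differences between the libraries of a group were larger for the members than for most genes at 18mo. In the 18mo control group replicate 2 was above replicate 1 in all 9 tested members, by 0.45 to 1.90 on the log2(FPKM + 0.5) scale with a median of 1.21, against a median of 0.02 over all genes. In 5 of the 9 replicate 2 was higher by 1 or more, as it was in 0.99% of all genes. In the 18mo IOP group replicate 2 was below replicate 1 in all 9, with differences from -3.35 to -0.35 and a median of -2.46, against 0.04 over all genes. In 7 of the 9 replicate 2 was lower by 1 or more, as it was in 4.96% of all genes. FPKM of replicate 1 was 14.2 times that of replicate 2 for Tfap2a, 12.3 times for Gad1, 11.4 times for Gad2, 9.84 times for Tfap2b and 9.47 times for Calb2, but 1.82 times for Slc6a9 and 1.52 times for Pvalb. In the 3mo IOP group the members' gaps lay between -0.07 and 0.54, and in the 3mo control group between -0.57 and 1.76, the latter for Pvalb. Summed rod markers did not follow the members, at 17499 and 15598 FPKM in 18mo control replicates 1 and 2 and 11839 and 14157 FPKM in 18mo IOP replicates 1 and 2. Other gene lists shared the gap. Of 14 tested amacrine transcription factors outside the members, 11 were higher in 18mo control replicate 2 than in replicate 1 (1 of them by 1 or more) and 12 were lower in 18mo IOP replicate 2 (6 of them by 1 or more). Of 9 tested ganglion cell markers 9 were higher in 18mo control replicate 2 and 8 were lower in 18mo IOP replicate 2. The gap was not limited to these cells. Of 8 bipolar cell markers 8 were higher in 18mo control replicate 2 and 8 were lower in 18mo IOP replicate 2 (none and 1 by 1 or more). In 18mo IOP replicate 2 all 7 tested horizontal cell genes outside the members (3 by 1 or more), all 6 cone markers (1 by 1 or more) and all 7 microglia and leukocyte markers (4 by 1 or more) were also lower than in replicate 1. Blood genes had the largest median gap of any list in the 18mo control group, 1.54, with 5 of 5 higher by 1 or more in replicate 2. Other lists ran the other way, since all 7 Muller glia and all 6 pigment epithelium markers were lower in 18mo control replicate 2, and all 3 tested lens genes were higher by 1 or more in 18mo IOP replicate 2. In the 18mo IOP group, however, 5 of the 7 Muller glia and all 6 pigment epithelium markers were lower in replicate 2, as the members were. These gaps describe single libraries, and their source was not tested.

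**Figure D3:**
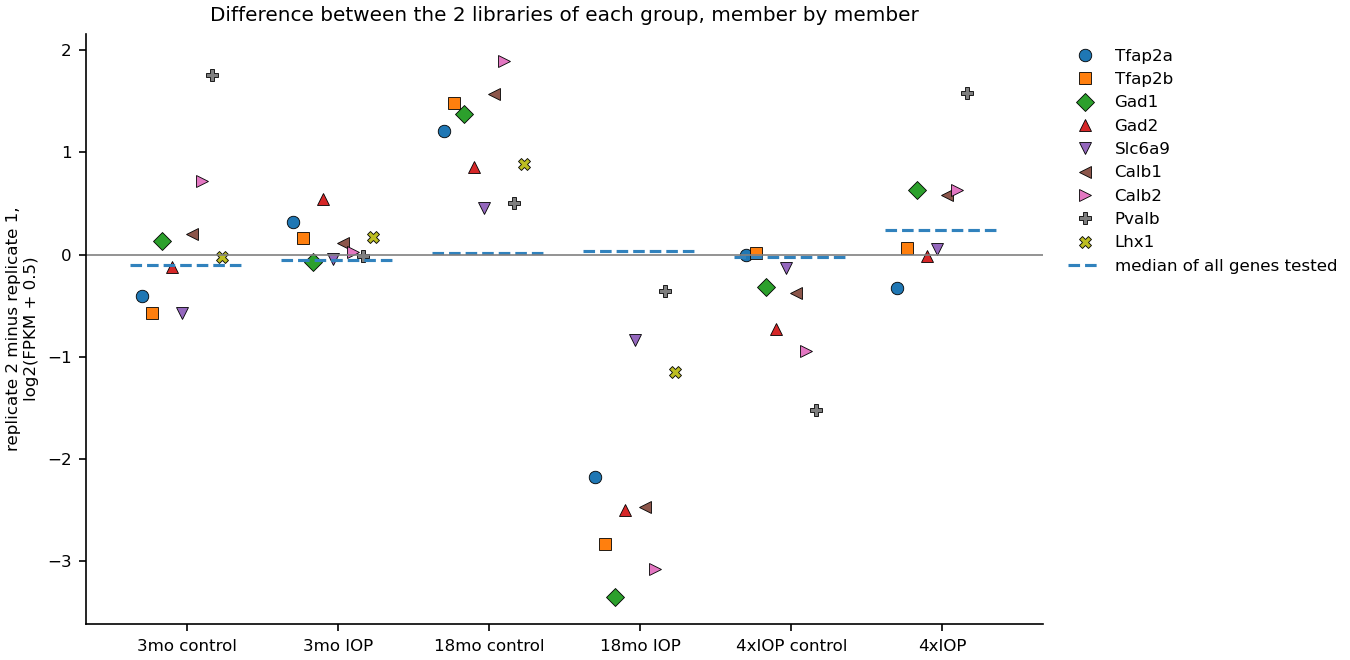
Replicate 2 minus replicate 1 on the log2(FPKM + 0.5) scale for each tested member in each of the 6 groups, with dashed lines at the median of all genes tested. All 9 members lie above 0 in the 18mo control group (0.45 to 1.90) and below 0 in the 18mo IOP group (-3.35 to -0.35).

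A single IOP elevation called no member at 3mo. Differences between 3mo IOP and 3mo control lay between -0.24 for Gad2 and 0.28 for Calb2, with a median of 0.03 against 0.13 over all genes, and the 2 groups overlapped in all 9 members, as against 32.5% of all genes without overlap. Of all genes tested 0.575% were called. No member reached an unadjusted p under 0.05 (1169 genes did), limma's smallest adjusted p was 0.999, and voom on the reads also called 0. The 95% interval was narrowest for Slc6a9, from -0.63 to 0.81, and widest for Calb2, from -1.85 to 2.41, and apart from Slc6a9 and Lhx1 (-0.93 to 0.99) the interval of every member reached past a 2-fold change in each direction.

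At 18mo the IOP comparison also called no member, and here the spread within the groups was wide. Differences lay between -0.92 for Gad1 and 0.32 for Pvalb, with a median of -0.52 against 0.09 over all genes, and 8 of the 9 were below 0. The groups overlapped in all 9 members, whereas 46.4% of all genes did not overlap, and 0.124% of all genes were called. No member had an unadjusted p under 0.05 (1297 genes did), the smallest limma adjusted p was 0.982 for Gad1, and voom called 0. For Tfap2a, Tfap2b, Gad1, Gad2 and Calb2, the members with a difference of at least 0.5 in size, the sign turned without 18mo IOP replicate 2. Without 18mo IOP replicate 2 Gad1 differed by 0.76 and Calb2 by 0.92, and without 18mo IOP replicate 1 by -2.59 and -2.15. The interaction of IOP with age was between -0.90 for Gad1 and 0.34 for Pvalb, with a median of -0.38 against -0.04 over all genes. It was called for 0 members and for 0% of all genes (limma adjusted p = 1 for each member, 218 genes and 0 members at an unadjusted p under 0.05, and 0 genes by voom). It uses the same control libraries as the IOP comparisons.

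Repeated IOP elevation left the members' levels overlapping or close. Calb2 was at 123 and 64.1 FPKM in the 4xIOP control and 70.8 and 109.6 FPKM in the 4xIOP libraries. Pvalb was at 23.8 and 7.999 FPKM in the control and 8.18 and 25.4 FPKM in the treated libraries. Gad1 was at 42.4 and 33.9 FPKM in the control and 25.2 and 39.2 FPKM in the treated libraries. In all 3 genes control replicate 1 and 4xIOP replicate 2 were the higher libraries, and the groups overlapped. Calb1 repeated this order, with 11.4 and 8.67 FPKM against 6.53 and 10.04 FPKM. Summed ganglion cell markers stood in the same order, at 273 and 151 FPKM in the control and 146 and 273 FPKM in the treated libraries, and their part was not tested.

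In the repeated-IOP table Tfap2b was counted on another transcript (NM_009334, 6123 bases, against 3821 bases in the single-IOP table), so its level is not set against that of the other mice. Slc6a9 was at 15.6 and 14.2 FPKM in the 4xIOP control and 14.7 and 15.3 FPKM in the 4xIOP libraries. Gad2 was at 4.09 and 2.27 FPKM in the control and 2.97 and 2.94 FPKM in the treated libraries. Tfap2a was at 0.561 and 0.557 FPKM against 0.883 and 0.601 FPKM, and Tfap2b at 6.61 and 6.68 FPKM against 6.02 and 6.33 FPKM, so these groups were separate, in opposite directions and by small steps. Lhx1 lay between 0.063 and 0.258 FPKM and Onecut1 between 0.207 and 0.558 FPKM, with overlapping groups. No member was called, with differences between -0.28 ± 0.25 for Calb1 and 0.22 ± 0.25 for Tfap2a (smallest limma adjusted p = 0.794), a median of -0.03 against 0.10 over all genes, none of the members (and 2119 of all genes) at an unadjusted p under 0.05, and 0 members called by voom. In this comparison 6.15% of the 13718 genes tested were called and 40.3% did not overlap between the groups, as against 2 of the 8 members. The 95% intervals of Tfap2b (-0.53 to 0.33), Gad2 (-0.56 to 0.47) and Slc6a9 (-0.48 to 0.50) lay within 1 of 0, and only that of Pvalb reached beyond 1, up to 1.13.

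**Figure D4:**
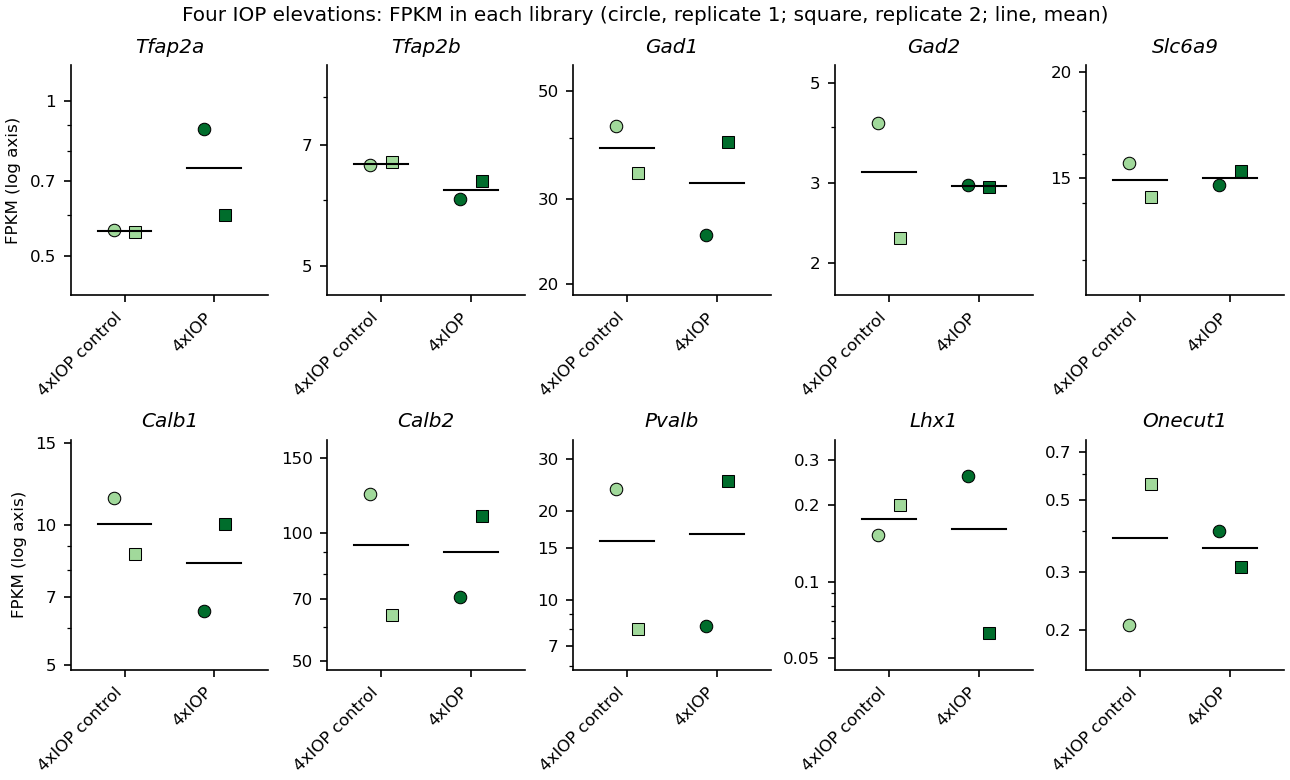
FPKM of each member in the 4 repeated-IOP libraries on log axes (circles, replicate 1; squares, replicate 2; lines, group means). Control and treated libraries overlap in 8 of the 10 members, and Pvalb spans 7.999 to 25.4 FPKM with a high and a low library in each group.

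Genes linked with amacrine and horizontal cells, though not only with them, were counted from lists that shared no gene with the members. Some of these genes were also counted among the bipolar cell markers. Whole retina does not show which cells a call came from. Of 14 tested genes for amacrine transmitters, peptides and subtypes 9 were called lower with age in control eyes and 9 in IOP eyes, none higher, and the list's median difference was -1.83 and -1.99, beside 11.6% of all genes called lower in each and medians of 0.16 and 0.09 over all genes. The largest falls in control eyes were in the neuropeptide genes Penk (-3.98 ± 0.34, limma adjusted p = 0.00265), Npy (-3.93 ± 0.49, adjusted p = 0.00467) and Vip (-3.62 ± 0.38, adjusted p = 0.00312), followed by Ppp1r17 (-3.21 ± 0.69, adjusted p = 0.00985). The same 4 genes were lower in IOP eyes by -3.68, -3.48, -3.45 and -3.03 in that order. Without 18mo control replicate 1 and 18mo IOP replicate 2 the counts were 6 and 7, beside 2.64% and 5.98% of all genes called, and Penk, Npy, Vip and Ppp1r17 were still called in both. Several of these genes are also expressed outside amacrine cells. Neither this list nor the other lists were matched to all genes by transcript length. In control eyes the median difference with age was -0.88 for genes under 1000 bases and 0.49 for those of 4000 bases and over. With the trend with transcript length removed, 16.4% of all genes were called in control eyes in place of 23.2%.

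Amacrine transcription factors outside the members divided. Of 14 tested, Neurod6 (-1.58 ± 0.33, limma adjusted p = 0.00952) and Tfap2d (-1.55 ± 0.28, adjusted p = 0.00675), another AP-2 gene, fell with age in control eyes and Sox2 (1.96 ± 0.23, adjusted p = 0.00412), which is also a Muller glia gene, rose, and the same 3 were called in IOP eyes. Without 18mo control replicate 1 and 18mo IOP replicate 2 Sox2 alone was called in control eyes (1.71, adjusted p = 0.0433), and Sox2 and Tfap2d were called in IOP eyes. Among 10 genes for GABA and glycine handling 3 were called higher and 1 lower with age in control eyes and in IOP eyes. The GABA transporter genes Slc6a11 (1.51 ± 0.23, adjusted p = 0.00543) and Slc6a13 (-2.56 ± 0.25, adjusted p = 0.00271) changed in opposite directions in control eyes. Without those libraries Slc6a13 alone was called in control eyes (-2.49, adjusted p = 0.0211), and Slc6a13 and Slc6a11 were called in IOP eyes. Among 7 tested horizontal cell genes Megf10 alone was called, higher by 1.28 ± 0.21 (adjusted p = 0.00597) in control eyes and 1.84 ± 0.21 (adjusted p = 0.0026) in IOP eyes. Without those libraries Megf10 was called in IOP eyes (2.01, adjusted p = 0.0219) and no horizontal cell gene in control eyes. Of 13 tested genes for neuronal EF-hand calcium-binding proteins, which share the fold of Calb1, Calb2 and Pvalb, Vsnl1 (-2.40 ± 0.70, adjusted p = 0.0253) and S100b (-1.26 ± 0.32, adjusted p = 0.016) fell and Necab2 (1.24 ± 0.30, adjusted p = 0.0134) rose in control eyes, and in IOP eyes Vsnl1 alone was called, lower. Without those libraries no EF-hand gene was called in control eyes, and Hpcal4 alone was called, higher (1.28, adjusted p = 0.0455), in IOP eyes. The shares of these 4 lists called in control eyes, 3 of 14, 4 of 10, 1 of 7 and 3 of 13, stand beside 23.2% of all genes. In the 3 IOP comparisons and the interaction none of these 5 lists had a called gene.

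**Figure D5:**
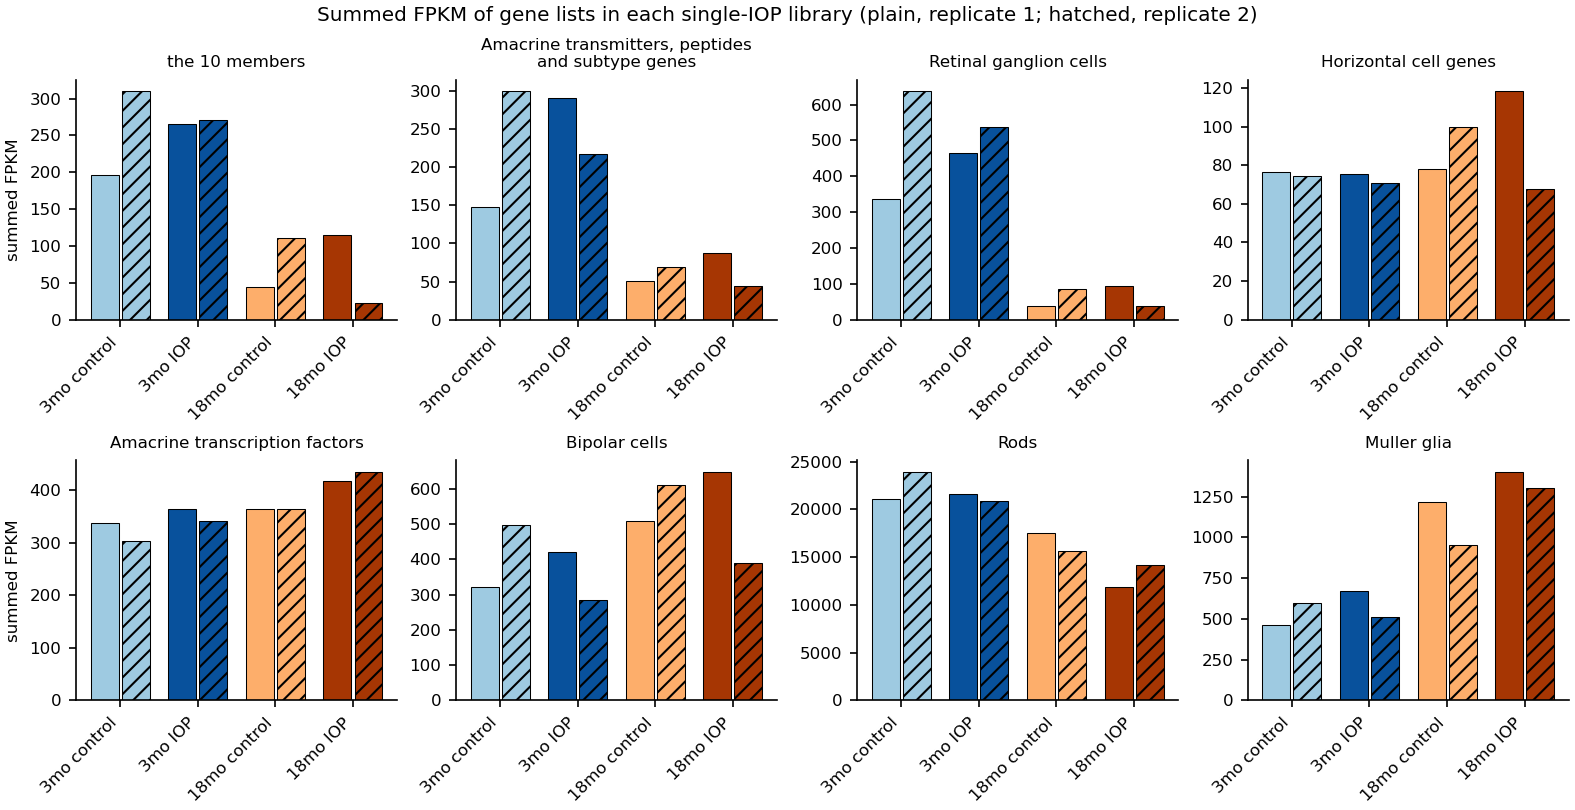
Summed FPKM of the 10 members and of 7 other lists in each single-IOP library (plain bars, replicate 1; hatched bars, replicate 2). The members sum to between 196 and 310.1 FPKM at 3mo and to 44.4, 111, 115 and 22.5 FPKM in the 18mo libraries, an order shared by ganglion cell genes (38.5, 86.1, 95.0 and 39.5 FPKM) apart from its lowest library and not by rods. The sum of amacrine transcription factors is carried by Neurod1 (226, 195, 196 and 312 FPKM in the 18mo libraries) and does not show the gaps of the other factors.

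For the 8 members averaging at least 2 FPKM, which leaves out Lhx1 and Onecut1, the genes of most like pattern over the 8 single-IOP libraries were named from all genes tested, as a description of libraries that share 2 ages. Kcnj3 (Pearson r 0.998) and Nap1l3 (0.996) were most like Tfap2a, Chrnb3 (0.995) and Tpbg (0.994) most like Tfap2b, Pcdhb8 (0.983) and Ptprk (0.976) most like Gad1, and Rab3c (0.987) and St6gal2 (0.986) most like Gad2. Scn3b (0.995) and Epb41l4a (0.994) were most like Calb1, Kcnip1 (0.997) and Tspyl4 (0.997) most like Calb2, and Adcy8 (0.989) and Cdk5r1 (0.978) most like Slc6a9. Sucla2 (0.999) and Srp9 (0.998) were most like Pvalb. Among the members themselves Slc6a9 was closest to Lhx1 (0.851) and ran against Pvalb (-0.481).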

How the data were processed

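Retinas of 12 libraries in 6 groups of 2 were analysed from 2 tables of FPKM, 1 for the 8 single-IOP and 1 for the 4 repeated-IOP libraries. The authors aligned reads to mm10 with STAR 2.7.8a, counted exon tags by strand with HOMER and deposited FPKM for 1 isoform per gene. The study's own tests used DESeq2 on counts, which were not used here. Each table was analysed alone, with no value set across them. FPKM were taken as log2(FPKM + 0.5), genes averaging under 0.5 FPKM across a table were dropped, and limma 3.58.1 (R 4.3.3) was run with a mean-variance trend and a Benjamini-Hochberg adjustment over all genes tested. The 4 single-IOP groups shared 1 fit. Scripts were tested on simulated data. Reads behind a value were recovered from FPKM and transcript length, and they show counting error only. Members and gene lists were chosen with earlier results of these data known. All 10 members are named, with a difference wherever called, under an unadjusted p of 0.05, or at least 0.5 in size (others mostly by range). From the other lists at most the 4 called genes of largest change are named, apart from Slc32a1, Barhl2 and Neurod1, which were not called. Alternatives covered pseudocount, filter, scaling, transcript length, eBayes trend, replicate block, groups in the fit, voom and each library left out.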

Additional observations from a re-analysis of the deposited data

How the results depend on the processing

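The 22 member differences that were called or at least 0.5 in size, none of them of Slc6a9 or Lhx1 and none from IOP at 3mo or 4xIOP, were recomputed under each alternative. Of the 386 values this gave, 345 kept their sign and their side of the threshold, 25 reversed, 11 lost and 5 gained a call. Pvalb was called lower with age throughout. The number of members called with age in control eyes was 1 in place of 2 without a filter (Calb2 adjusted p = 0.0809), with quantile normalization (0.065), with a crossed replicate block, without 18mo control replicate 1 and 18mo IOP replicate 2, and without any single library (1 to 1). In IOP eyes it was 1 to 7 with a library left out. The share of all genes called with age fell as well when any library of the IOP eyes was left out. In control eyes it also fell, except without 3mo control replicate 1, where it rose. Each of these fits left 1 library in a group, and a lost call need not be particular to the members. The 3 IOP comparisons and the interaction called 0 members in every alternative. Reversals of sign came from leaving out libraries. With age, leaving out a library gave -1.20 to 0.18 for Gad1 in control eyes and, in IOP eyes, -2.44 to 0.39 for Tfap2b, -3.09 to 0.26 for Gad1 and -2.05 to 0.44 for Gad2. For IOP at 18mo it gave -1.69 to 0.48 for Tfap2a, -2.10 to 0.74 for Tfap2b, -2.59 to 0.76 for Gad1, -1.77 to 0.73 for Gad2 and -2.15 to 0.92 for Calb2. For the interaction it gave -1.74 to 0.43 for Tfap2a, -2.13 to 0.70 for Tfap2b, -2.58 to 0.77 for Gad1 and -2.44 to 0.64 for Calb2. Without both low 18mo libraries, a choice made after seeing the data, Gad1 was at 0.07 and Gad2 at 0.30 for IOP at 18mo, and Gad1 at 0.08 for the interaction. Same-numbered control and IOP libraries deviated in opposite directions, so the numbers were not taken as pairs. Pearson r was -0.28 at 3mo, -0.53 at 18mo and -0.29 in the repeated-IOP libraries. The replicate block changed no call of a member (Calb2 adjusted p = 0.0465 in control eyes), and called 20 genes for IOP at 3mo where 79 were called without it, and 0 at 18mo. The crossed replicate block, added after seeing the data, called 312 genes for IOP at 3mo and 306 at 18mo, none of them a member. Median-of-ratios scaling moved the median age difference of all genes in control eyes from 0.16 to 0.01 and the share of higher calls from 50.1% to 35.0%. The cause of these changes was not tested.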

Other observations

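A pair of amacrine genes outside the members, chosen after their values were seen, had the order of Gad1 and Gad2 in the 18mo libraries. Among these libraries Tfap2a and Tfap2b were instead highest in 18mo control replicate 2. Of 14 tested amacrine transcription factors 3 were lower in 18mo control replicate 2 than in replicate 1. In the 18mo IOP group 2 of the 14 were higher in replicate 2. Slc32a1, the vesicular transporter of GABA and glycine, was at 7.33 and 5.60 FPKM in the 3mo control, 8.21 and 7.56 in the 3mo IOP, 3.85 and 9.89 in the 18mo control and 11.1 and 1.78 in the 18mo IOP libraries. Its difference with age was -0.04 ± 0.69 in control eyes and -0.70 ± 0.69 in IOP eyes (limma adjusted p = 0.968 and 0.424). Barhl2, a homeodomain factor of amacrine cells, was at 1.60 and 1.32 FPKM in the 3mo control, 1.56 and 1.55 in the 3mo IOP, 0.484 and 2.00 in the 18mo control and 2.24 and 0.342 in the 18mo IOP libraries. The difference of Barhl2 with age was -0.32 ± 0.57 in control eyes and -0.44 ± 0.57 in IOP eyes (limma adjusted p = 0.667 and 0.554). In the repeated-IOP libraries, where no aged retina was included, Slc32a1 lay between 5.58 and 8.77 FPKM and Barhl2 between 1.60 and 2.41 FPKM.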
